A study of Homo sapiens with 13 samples.

Results

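Trimethylation of lysine 4 on histone H3 (H3K4me3) marks the nucleosomes around gene starts, where it is laid down by SET1 and MLL complexes, and it is present at many promoters whether or not the gene is strongly transcribed. Acetylation of lysine 27 (H3K27ac), written by the acetyltransferases p300 and CBP, is typical of active promoters and enhancers. Trimethylation of the same lysine (H3K27me3), written by Polycomb repressive complex 2, is typical of silenced developmental genes. A single lysine cannot carry both lysine 27 marks at once, and in embryonic stem cells many promoters of developmental genes carry H3K4me3 together with H3K27me3, a state called bivalent. The regions described here lay outside both groups in wild-type cells: they had an H3K4me3 peak with neither lysine 27 mark called.

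The cells were H1 (WA01), an established line of human embryonic stem cells. The knockout (KO) cells were the H1 clone named 1-10, homozygous for a deletion of ZNF263 made with Cas9, and the reference was wild-type (WT) H1. ZNF263 is a C2H2 zinc finger transcription factor. ChIP-seq, which sequences the DNA recovered with an antibody against a chromatin protein, mapped 3 histone marks in KO and in WT cells. A FLAG antibody mapped tagged ZNF263 in KO cells with ectopic expression of ZNF263-FLAG. The 7 deposited peak lists of these libraries were used, 1 library per arm. Nothing here was tested between genotypes, the differences have no replicate check, and the difference between this 1 clone and WT cells cannot be told apart from the effect of losing ZNF263. Endogenous ZNF263 was also immunoprecipitated from WT cells in 2 libraries, with no separate peak list among the 7. The labels of those libraries name the same ZNF263 peak list as the FLAG library. The name of that list holds KO_OE_Flag, so it was taken as the list of the FLAG library.

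The regions were WT H3K4me3 peaks selected on measured values by 3 conditions. They overlapped no WT H3K27ac peak, they overlapped no WT H3K27me3 peak, and they overlapped a KO H3K4me3 peak by at least 1 bp. Of the 28660 WT H3K4me3 peaks, 8217 carried neither lysine 27 mark, and 6071 of those also had a KO H3K4me3 peak. These 6071 peaks, called members here, covered 13.1 Mb. The other 2146 peaks with H3K4me3 alone were not kept in KO. Among the remaining kept peaks, 9916 carried H3K27ac only, 7800 carried H3K27me3 only and 1338 carried both in WT. Because the selection used WT H3K27ac and WT H3K27me3, a member could gain a lysine 27 mark in KO but could not lose one. The opposite direction therefore needed a set drawn from the KO H3K4me3 list, which is set beside the members further on. Regions with neither lysine 27 mark in either genotype can be in both sets. All coordinates are hg19, counted from 1. Intervals are 95% Wilson intervals for shares and Newcombe intervals for differences of shares, and they cover the counting of peaks only. Depth is unknown, because the lists hold no read counts.

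The members were narrow and low-scoring next to the other kept classes, and higher-scoring than the lone peaks that were not kept. Their median width was 1963 bp (quartiles 1502.5 and 2670.5), with a range of 331 to 8334 bp. Kept peaks with H3K27ac only had a median width of 3252 bp, those with H3K27me3 only 2560 bp, those with both 3827 bp, and lone peaks not kept 1308 bp. The score is the authors' value for a peak, on a scale that no source used here gives, and it stops ranking peaks near a ceiling of 3100. The median WT H3K4me3 score was 400.78 at members and 68.9 at lone peaks not kept. The ceiling was reached by 25.8% of members, against 62.3% of the kept peaks with H3K27ac only, 43.8% of those with H3K27me3 only, 85.7% of those with both, and 1 of the 2146 lone peaks not kept. Retention in KO was part of the selection, so the difference between kept and unkept lone peaks is a description of the selection.

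H3K4me3 itself was alike in KO and WT at most members, which were selected for having it in both. One KO peak faced one WT peak at 5938 members (97.8%). The median score was 411.39 in KO, taking the highest-scoring KO peak that overlapped each member, and 400.78 in WT. Of the 1566 members at the ceiling in WT, 1387 (88.6%) were also at the ceiling in KO. The width of the KO H3K4me3 peaks over that of the WT peaks they joined had a median of −0.02 on the log2 scale (quartiles −0.14 and 0.10). The KO and WT widths were within 1.2-fold of each other at 4805 members (79.1%). The KO peak was at least 2 times wider at 9 members and at least 2 times narrower at 13. The extremes were low-scoring WT peaks. At chromosome 4, 186731567 to 186732752, the KO peak was 3783 bp wide and the WT peak 1186 bp, a log2 ratio of 1.67, and neither lysine 27 mark appeared. At chromosome 16, 83635522 to 83637524, the KO peak was 629 bp wide and the WT peak 2003 bp, a log2 ratio of −1.67, and a KO H3K27ac peak with a score of 66.06 was present. Both had WT H3K4me3 scores under 100 (74.95 and 85.1).

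The 6 peaks named here, just inside and just outside the retention rule, all had low WT H3K4me3 scores. The members with the shortest KO overlap shared 1 bp at chromosome 9, 21332348 to 21333237, 5 bp at chromosome 8, 13733287 to 13734563, and 14 bp at chromosome 2, 173795662 to 173796725. The nearest lone peaks left outside lay 10 bp from a KO peak at chromosome 17, 74992567 to 74993623, 34 bp at chromosome 19, 38881988 to 38883434, and 36 bp at chromosome 6, 132225763 to 132226900. The WT H3K4me3 scores of these 6 peaks were between 50.43 and 96.1. In KO they were less alike. The KO H3K4me3 peak at the chromosome 9 member scored 3100 and also overlapped a neighbouring WT peak, with 3635 bp of WT peaks joined. The chromosome 8 member carried a KO H3K27ac peak with a score of 83.03.

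The question put to the members was which of them gained a lysine 27 mark in KO. Most did not: 4938 members (81.3%, 80.3 to 82.3) carried neither KO mark. A KO H3K27ac peak without KO H3K27me3 was present at 934 members (15.4%, 14.5 to 16.3). A KO H3K27me3 peak without KO H3K27ac was present at 188 (3.10%, 2.69 to 3.56), and 11 members (0.181%) gained both. Counting these 11 under each mark, KO H3K27ac was present at 945 members (15.6%, 14.7 to 16.5), where the share over all kept WT H3K4me3 peaks without WT H3K27ac was 8.01%. KO H3K27me3 was present at 199 members (3.28%, 2.86 to 3.76), where the share over all kept WT H3K4me3 peaks without WT H3K27me3 was 1.78%.

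Members make up a large part of both of those totals, so the rest of each total is the direct contrast. Among kept peaks with WT H3K27me3 only, 166 of 7800 (2.13%) carried a KO H3K27ac peak, and the members' share was higher by 13.4 points (12.5 to 14.4). Among kept peaks with WT H3K27ac only, 86 of 9916 (0.867%) carried a KO H3K27me3 peak, and the members' share was higher by 2.41 points (1.95 to 2.92). A lone H3K4me3 peak thus more often carried a new lysine 27 peak in KO than a peak that already held the other lysine 27 mark in WT. This held within each of 4 width classes set by the members' quartiles, of which the widest has no upper limit. In that class KO H3K27ac was present at 22.2% of members and 3.50% of peaks with WT H3K27me3 only (18.7 points, 16.6 to 20.9), and in the narrowest at 11.1% and 0.949%. KO H3K27me3 was present at 2.57% of members and 0.990% of peaks with WT H3K27ac only in the widest class (1.58 points, 0.845 to 2.53), and at 2.83% of members and 0 of 580 such peaks in the narrowest. Read from the side of the new peaks, 933 of the 4365 KO H3K27ac peaks with no WT counterpart (21.4%) lay at members, and 175 of the 1143 KO H3K27me3 peaks with no WT counterpart (15.3%) did. Of the whole KO lists, 942 of 17571 H3K27ac peaks and 199 of 10375 H3K27me3 peaks covered the gaining members. Members were selected to have no WT lysine 27 peak, so a KO peak there could have a WT counterpart only outside the member. The shares among peaks with no WT counterpart therefore follow in part from the selection.

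The opposite direction was more common for both marks. KO H3K4me3 peaks with neither KO lysine 27 mark that overlapped a WT H3K4me3 peak numbered 7212. Of these, 1511 (21.0%, 20.0 to 21.9) carried WT H3K27ac, where the share over all shared KO H3K4me3 peaks without KO H3K27ac was 12.8%. WT H3K27me3 was present at 897 (12.4%, 11.7 to 13.2), where the share over all shared KO H3K4me3 peaks without KO H3K27me3 was 7.26%. Neither WT mark was present at 4945 of the 7212, and these can be the same regions as the 4938 members with neither KO mark. The sets are thus not independent, and their overlap was not counted. Regions with H3K4me3 alone in 1 genotype thus carried H3K27ac in the other genotype at 15.6% of members in KO and 21.0% of the mirrored set in WT. For H3K27me3 the shares were 3.28% of members in KO and 12.4% of the mirrored set in WT. The KO H3K27me3 list holds 10375 peaks and the WT list 11906. With both genotypes' lysine 27 lists brought to equal length by score, the H3K27me3 shares were 4.73% of members and 8.79% of the mirrored set. With the upper 50% of every histone list they were 1.13% and 8.21%.

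**Figure D1:**
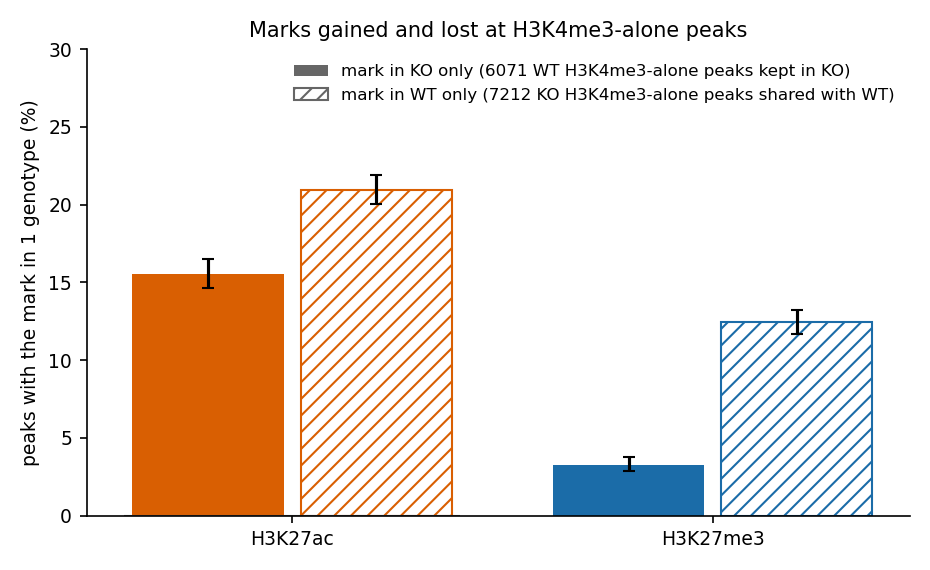
Share of H3K4me3-alone peaks with a lysine 27 mark in the other genotype, in percent. Filled bars are the 6071 members and count KO peaks, hatched bars are the 7212 KO peaks with H3K4me3 alone that were shared with WT and count WT peaks, and error bars are 95% Wilson intervals. H3K27me3 differed most between the directions, with 3.28% of members and 12.4% of the mirrored set.

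The new H3K27ac peaks were weak and centred on the H3K4me3 peak. The 945 members that gained H3K27ac were covered by 942 KO peaks with a median score of 62.87 (quartiles 50.37 and 89.15), where the whole KO H3K27ac list had a median of 111.81. Only 136 of the 945 (14.4%) were above that median. The 3432 KO H3K27ac peaks with no WT counterpart that lay elsewhere were weaker still, with a median of 55.01. The KO H3K27ac peak covered a median of 68.2% of the member (quartiles 53.6 and 85.8), and its centre lay inside the member at 911 of 945 (96.4%), at a median distance of 235.5 bp from the member's centre. It reached over from a WT H3K27ac peak outside the member in 15 cases (1.59%, 0.964 to 2.60).

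New H3K27me3 peaks were also weak for their list, were less well centred, and more of them were extensions of a WT domain. Their median score was 63.15 (quartiles 48.2 and 95.67), where the whole KO H3K27me3 list had a median of 309.76, and 15 of 199 (7.54%) were above it. The 968 KO H3K27me3 peaks with no WT counterpart that lay elsewhere were also weak, with a median of 55.455. The KO peak covered a median of 56.2% of the member, and its centre lay inside the member at 130 of 199 (65.3%), at a median distance of 757.5 bp from the member's centre. In 25 cases (12.6%, 8.66 to 17.9) the KO H3K27me3 peak also overlapped a WT H3K27me3 peak outside the member, and 27.5% (21.8 to 33.9) did when an overlap had to cover 50% of the smaller peak. These 25 had a median score of 368.74, against 59.64 for the others, and they made up 13 of the 15 gains above the list's median. Both KO lysine 27 lists begin at a score of 40, so many gains lay close to the lowest score listed, and the part of the caller's threshold in these gains was not tested. With the KO lysine 27 lists limited to their upper 50% by score, 2.24% of members carried KO H3K27ac and 0.247% carried KO H3K27me3. Of those remaining gains, 8.82% of the H3K27ac and 86.7% of the H3K27me3 gains reached over from a WT peak. With every histone list so limited, the shares of members were 9.77% for KO H3K27ac and 1.13% for KO H3K27me3, and 0.407% of the H3K27ac gains reached over.

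The distance to the nearest WT peak of the same mark separated the 2 marks in the same way. H3K27me3 was gained by 18 of 92 members (19.6%, 12.7 to 28.8) that lay within 1 kb of a WT H3K27me3 peak, by 6.53% at 2 to 5 kb, and by 64 of 2399 (2.67%, 2.09 to 3.39) beyond 100 kb. H3K27ac was gained by 31 of 116 members (26.7%, 19.5 to 35.4) within 1 kb of a WT H3K27ac peak and by 206 of 1559 (13.2%, 11.6 to 15.0) beyond 100 kb. Between 1 and 100 kb the H3K27ac share stayed between 15.2% and 17.3%. By number, the largest single group of H3K27ac gains (356 of 945) lay 10 to 50 kb from a WT H3K27ac peak. That distance also held the most members, 2245 of 6071. The largest group of H3K27me3 gains (64 of 199) lay beyond 100 kb from a WT H3K27me3 peak, where the most members lay too (2399 of 6071). These counts thus largely follow the sizes of the distance groups. Nearness did not fix the outcome of a single peak. The member nearest to a WT H3K27ac peak, 15 bp away at chromosome 3, 154996644 to 154998426, gained H3K27ac with a score of 174.2, while the next, 18 bp away at chromosome 17, 8053520 to 8056504, gained nothing. Both members nearest to a WT H3K27me3 peak, at chromosome 20, 3760930 to 3762448 (10 bp), and chromosome 1, 161396303 to 161399076 (12 bp), gained nothing.

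**Figure D2:**
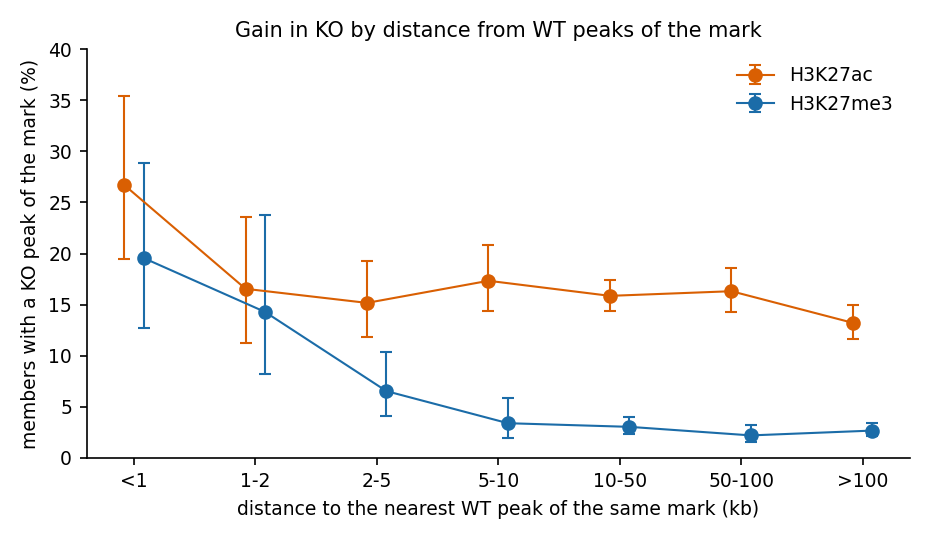
Share of members with a KO peak of H3K27ac or H3K27me3, in percent, by the distance in kb to the nearest WT peak of the same mark. Points are shares and error bars 95% Wilson intervals. The H3K27me3 share was 19.6% within 1 kb and 2.67% beyond 100 kb, and the H3K27ac share 26.7% and 13.2%.

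The strongest single H3K27ac gains were not typical of the rest, as several of them reached over from a WT peak. Of all H3K27ac gains 15 of 945 did so, and of those above the list's median score 12 of 136. The highest-scoring KO H3K27ac peak at a member without KO H3K27me3 scored 872.68 and lay at chromosome 20, 61562991 to 61564692. It was 8110 bp wide and joined a WT H3K27ac peak 0.719 kb away, and the KO H3K4me3 peak there had a score of 3100 where the WT peak had 55.42. That KO H3K4me3 peak also covered neighbouring WT H3K4me3 peaks, with 8793 bp in KO and 8637 bp in WT. The next, at chromosome 3, 184628459 to 184630435 (743.32), touched the member by only 16 bp and also reached over from a WT peak, as did the one at chromosome 12, 14865473 to 14868014 (378.8), 0.25 kb from a WT H3K27ac peak. New peaks with no WT counterpart were found at chromosome 6, 57383227 to 57385852 (387.75), where the KO H3K27ac peak was 7707 bp wide and covered the whole member. The other, at chromosome 5, 140513879 to 140516462 (340.44), lay 38.7 kb from the nearest WT H3K27ac peak and carried a FLAG peak with a score of 96.79.

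The 5 highest-scoring KO H3K27me3 peaks at members without KO H3K27ac all had a score of 3100, and all were the edges of wide domains that overlapped a WT H3K27me3 peak. The KO domain was 20382 bp wide at chromosome 10, 104004043 to 104006906, and overlapped that member by 255 bp. At chromosome 8, 144516601 to 144518305, a domain of 16765 bp overlapped the member by 883 bp, and at chromosome 19, 13972194 to 13973583, one of 16042 bp overlapped by 384 bp. The domains at chromosome 1, 33805583 to 33809018 (12026 bp), and chromosome 22, 19130537 to 19132775 (9492 bp), overlapped their members by 397 and 178 bp. The WT H3K27me3 peak had ended 0.021 to 1.792 kb short of these 5 members. FLAG peaks were present at the members on chromosomes 8 and 19, with scores of 153.4 and 252.19.

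Of the 11 members with both KO marks, the 3 with the largest sums of scores are named here. The highest sum of both scores was at chromosome 20, 23616771 to 23618782, with a KO H3K27me3 score of 169.61, a KO H3K27ac score of 40.23 and a FLAG score of 122.34. Both peaks were weak at chromosome 3, 141480837 to 141482232, with a KO H3K27ac score of 93.13 and a KO H3K27me3 score of 47.33. They were weak also at chromosome 11, 121592220 to 121594829, with 70.88 for KO H3K27ac and 67.15 for KO H3K27me3. Neither KO peak at these 3 members touched a WT peak of its mark. A pair of marks in 1 list of peaks does not show that both were on the same nucleosomes or in the same cells.

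Gain of H3K27ac did not run in 1 direction with the strength of H3K4me3. The members were divided into 4 classes by WT H3K4me3 score, with the 1566 at the ceiling as the top class and 1501 or 1502 in each of the others. The share with KO H3K27ac was 18.3% (16.4 to 20.3) in the lowest class, 14.5% (12.8 to 16.4) in the next, 9.59% (8.20 to 11.2) in the third and 19.7% (17.8 to 21.7) at the ceiling. H3K27me3 ran the other way, with 2.66%, 3.73%, 4.66% and 2.11% in the same order. By 4 classes of width with nearly equal numbers of members, the share with KO H3K27ac was 11.1% in the narrowest and 22.2% in the widest class, and the share with KO H3K27me3 lay between 2.57% and 4.15%. Members that gained H3K27ac alone had a median width of 2251 bp, those that gained H3K27me3 alone 1865 bp, and those with no gain 1926.5 bp.

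**Figure D3:**
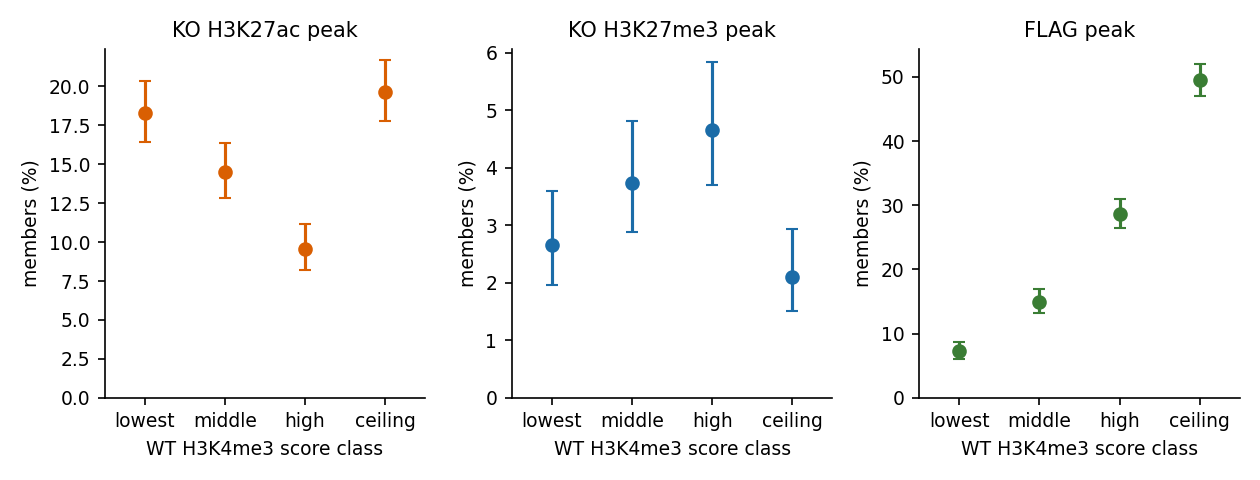
Share of members with a KO H3K27ac peak, a KO H3K27me3 peak and a FLAG peak, in percent, in 4 classes of WT H3K4me3 score (the top class holds the 1566 members at the ceiling). Points are shares, error bars 95% Wilson intervals, and the vertical scales differ between the panels. H3K27ac gain was lowest in the third class (9.59%), and FLAG overlap was 7.32% in the lowest class and 49.6% at the ceiling.

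The widest members without a gain showed how much H3K4me3 could be present with neither mark in either genotype. At chromosome 3, 50272587 to 50280920, the KO peak was 6553 bp and the WT peak 8334 bp wide, with a FLAG peak of score 418.52. At chromosome 17, 2234738 to 2242625, the KO peak was 8276 bp and the WT peak 7888 bp wide. The next were at chromosome 13, 41235745 to 41242870, chromosome 14, 77604889 to 77611794, and chromosome 19, 1256567 to 1263451, with KO widths of 6720, 6672 and 6179 bp and WT widths of 7126, 6906 and 6885 bp. Of these 5, 4 carried a FLAG peak, and the one on chromosome 14 did not. The WT H3K27ac peak nearest to the members on chromosomes 3 and 13 lay 0.871 and 0.344 kb away, so these were lone peaks close to acetylated chromatin.

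FLAG-tagged ZNF263 was less frequent at members than at kept peaks with H3K27me3, in each width class. Next to kept peaks with H3K27ac only, it was more frequent at members in the 3 narrower width classes, with a difference in the widest whose interval spans 0. A FLAG peak was present at 1542 members (25.4%, 24.3 to 26.5), where the share over all WT H3K4me3 peaks was 39.3%. With every histone list limited to its upper 50% by score, the share was 52.0% at members and 59.5% over all remaining WT H3K4me3 peaks. The share was 36.0% at kept peaks with H3K27ac only, a difference of −10.6 points (−12.0 to −9.10), and 61.6% at kept peaks with H3K27me3 only, a difference of −36.2 points (−37.7 to −34.6). Kept peaks with both marks stood at 72.9%. The members' share was 17.2 points higher (15.5 to 18.7) than the 8.25% of lone peaks not kept, which were narrower. In the narrowest width class, which held 1570 of the 2146 unkept peaks, the shares lay closer, with 9.22% of members and 6.69% of lone peaks not kept. They were 16.9% and 12.1% in the second class and 29.2% and 15.1% (14 of 93, 9.18 to 23.7) in the third. In the widest they were 46.4% and 10.0%, the latter from 1 of 10 unkept peaks. A single FLAG peak was present at 1512 of the 1542 members (98.1%), with its centre inside the member at 1401 (90.9%). The median FLAG score was 101.155 at members, against 122.29 at kept peaks with H3K27ac only and 147.7 at those with H3K27me3 only. FLAG overlap went with both width and score of the member: it was 9.22% in the narrowest and 46.4% in the widest class, and 7.32% in the lowest and 49.6% in the top score class. The other kept classes were wider, so the shares were set side by side within the members' width classes. Against kept peaks with H3K27ac only, the order was then turned round in the 3 narrower classes, with 9.22% of members and 2.07% of the others in the narrowest, 16.9% and 6.80% in the second, and 29.2% and 17.5% in the third (a difference of 11.7 points, 8.73 to 14.6). In the widest class the shares were 46.4% of members and 47.9% of the others, −1.53 points with an interval of −4.30 to 1.25. That class has no upper limit of width and held 6669 of the 9916 others, so widths within it may still differ. Against kept peaks with H3K27me3 only, the members were lower in all 4 classes, by −17.5 points (−21.7 to −13.6) in the narrowest and −31.0 points (−33.8 to −28.1) in the widest. Tagged ZNF263 was expressed ectopically, so a FLAG peak need not be a site of the endogenous protein.

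Members that gained H3K27ac carried a FLAG peak less often than those that gained nothing. The share was 175 of 934 (18.7%, 16.4 to 21.4) with KO H3K27ac only, 55 of 188 (29.3%, 23.2 to 36.1) with KO H3K27me3 only, and 1308 of 4938 (26.5%, 25.3 to 27.7) with neither mark. Over all members with KO H3K27ac, including those with both marks, the difference from members with neither KO mark was −7.55 points (−10.2 to −4.66). For KO H3K27me3 the difference was 3.16 points, with an interval of −2.88 to 9.95 that spans 0. It was 6.91 points (0.716 to 13.7) when an overlap had to cover 50% of the smaller peak, 10.3 points (−2.74 to 21.7) with the upper 50% of every histone list, and −5.63 points (−18.6 to 19.6) for the 15 gains left with the upper 50% of the KO lysine 27 lists. The lower share at H3K27ac gains stood in each width class. It was 4.22% against 9.55% in the narrowest class (331 to 1502 bp), 5.24% against 18.3% in the second, 13.4% against 31.7% in the third, and 38.0% against 49.1% in the widest (2671 to 8334 bp). Weighted over the width classes by the number of gains, the difference was −12.1 points, and over the score classes −8.34 points.

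**Figure D4:**
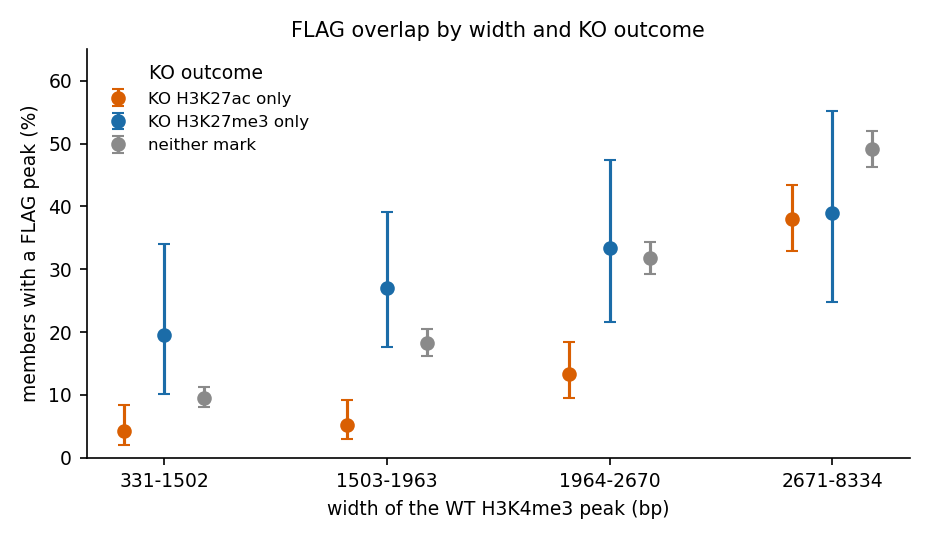
Share of members with a FLAG peak, in percent, by class of the WT H3K4me3 peak's width in bp and by the KO outcome (H3K27ac only, H3K27me3 only, neither). Points are shares and error bars 95% Wilson intervals. In each class the H3K27ac gains were below the members with neither mark, with 38.0% against 49.1% in the widest.

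The members with the highest-scoring FLAG peaks took all 3 courses. The highest was at chromosome 19, 52190169 to 52196090, with a FLAG score of 2576.46, and the KO H3K27ac list had a peak of score 81.83 there. At chromosome 1, 228295334 to 228298257 (FLAG score 1606.14), the KO cells had an H3K27me3 peak of score 72.76. Neither mark appeared at chromosome 8, 97504625 to 97509068 (1337.48), or at chromosome 19, 3698729 to 3701037 (1147.84). At chromosome 4, 160022693 to 160028210 (1061.49), a KO H3K27ac peak of score 260.11 was present. All 5 had an H3K4me3 score of 3100 in KO and in WT.

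Regions that gained a mark in KO and regions that lost it also differed in FLAG overlap. Among peaks with H3K4me3 alone in 1 genotype, the FLAG share was 18.7% (16.4 to 21.4) where H3K27ac was gained in KO and 499 of 1370 (36.4%, 33.9 to 39.0) where it was lost, a difference of −17.7 points (−21.2 to −14.1). For H3K27me3 it was 29.3% (23.2 to 36.1) where the mark was gained and 373 of 756 (49.3%, 45.8 to 52.9) where it was lost, a difference of −20.1 points (−27.1 to −12.4). With the upper 50% of every histone list, the differences were −10.5 points (−15.8 to −5.09) for H3K27ac and −11.1 points (−25.0 to 1.21) for H3K27me3, whose interval then spans 0. The whole sets differed as well, with a FLAG peak at 25.4% of the members and 31.6% of the 7212 mirrored peaks. The gained regions were narrower, with a median of 2251 bp against 2747.5 bp for lost H3K27ac and 1865 bp against 2305 bp for lost H3K27me3. Their median H3K4me3 scores were lower too, 320.055 against 3100 for lost H3K27ac and 399.97 against 1636.76 for lost H3K27me3. Gains and losses were compared within width classes but not within score classes. In the widest class (2671 bp and more) the shares were 38.0% at H3K27ac gains and 50.3% at losses, a difference of −12.2 points (−18.4 to −5.83). For H3K27me3 in that class they were 38.9% at gains and 65.9% at losses, −27.0 points (−42.1 to −9.67). The third class differed the same way for both marks. In the 2 narrower classes both marks had intervals that include 0, with 4.22% at gains and 6.14% at losses for H3K27ac in the narrowest. Widths and scores came from the WT peak at gains and from the KO peak at losses.

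The members were spread unevenly over the chromosomes. They made up 269 of 853 WT H3K4me3 peaks on chromosome X (31.5%, 28.5 to 34.7) and 5794 of 27767 on the autosomes (20.9%, 20.4 to 21.3), a difference of 10.7 points (7.60 to 13.9). Peaks with H3K27me3 only were fewer on X, at 21.5% against 29.0% on the autosomes. The X-linked members scored higher, with a median WT H3K4me3 score of 1142.77 against 386.655 on the autosomes, and carried a FLAG peak less often, at 16.4% against 25.8%. Their H3K27ac gain was 16.0% on X and 15.6% on the autosomes. Among autosomes the members' share of H3K4me3 peaks lay between 17.1% on chromosome 13 and 25.0% on chromosome 16.

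H3K27ac gain and FLAG overlap varied across autosomes in opposite directions. Gain ran between 10.9% of members on chromosome 20 and 24.8% (55 of 222) on chromosome 4, and FLAG overlap between 13.5% on chromosome 18 and 43.2% on chromosome 19. Across the 22 autosomes the Pearson correlation of the 2 shares was −0.69 and Spearman's rho −0.80, and without chromosomes 16 and 19 they were −0.69 and −0.79. All points come from the same few libraries, and autosomes differ in gene density and base composition, whose part was not tested. Within the autosomes, the FLAG share was lower at H3K27ac gains than at members with neither mark on 17 of 22, and the difference averaged −6.47 points when weighted by the number of gains. For H3K27me3 gain the correlation with FLAG overlap was 0.27. It was 0.08 for the loss of H3K27ac in the mirrored set.

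**Figure D5:**
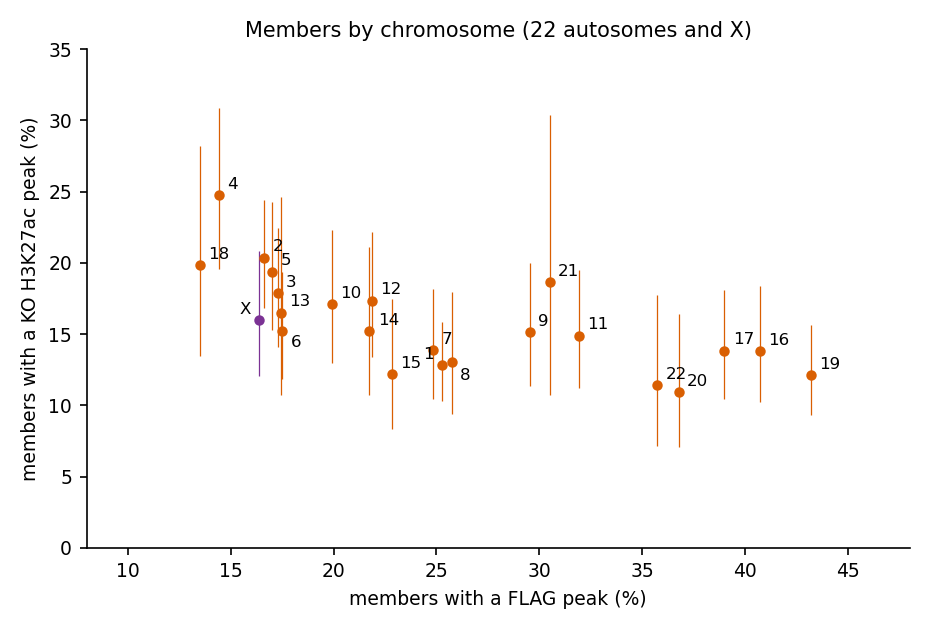
Share of members with a KO H3K27ac peak against the share with a FLAG peak, both in percent, for each autosome (orange) and chromosome X (purple). Vertical lines are 95% Wilson intervals of the H3K27ac share. Chromosome 4 had the highest H3K27ac share (24.8%) with a low FLAG share, and chromosome 19 the highest FLAG share (43.2%).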

How the data were processed

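Peak lists of the 6 histone libraries (KO and WT) and of the FLAG library in H1 cells were used. The submitters' processing notes name Bowtie2, Picard and hg19 without tool versions, and peak names begin with MACS. Caller version, controls and pooling: not given in the sources used here. Per list, the deposited file holds positions and a score per peak, the authors' value, whose scale is not given. Scores served to describe, rank and filter peaks within a list. H3K4me3 scores were also set side by side between KO and WT, and both KO lysine 27 scores were summed to rank members with both marks. Depth is unknown, so scores of different lists may not be comparable. Lysine 27 lists begin at a score of 40, the WT H3K4me3 and FLAG lists at 50, so lengths of lists are not comparable between marks. The name of the FLAG list ends in noblk, which no histone list's does, so a region may lack a FLAG peak because it was removed.

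Overlaps of at least 1 bp were computed in python (3.11.15) using pandas 2.3.3, numpy 2.4.6 and scipy 1.17.1, and checked against bedtools 2.31.1, with 0 peaks that differ. The overlap step was tested on simulated data. Neighbouring peaks joined through a common peak of the other genotype were summed for the width ratio. Plots were made with matplotlib 3.10.9. Named regions were those with the highest KO H3K27ac or H3K27me3 scores (5 each), the highest sum of both (3), the widest with no gain (5), the highest FLAG scores (5), the most extreme width ratios, and those nearest to the edges of the rule. The members, classes and lists were chosen with earlier results of these data known. No hg19 genome or annotation was used here, so genes and sequences are not given. Alternatives were autosomes alone, merging of peaks up to 3 kb apart, lysine 27 lists cut to equal length, the upper 50% of each list by score, a gap of up to 1 kb counted as overlap, and an overlap covering 50% of the smaller peak. Comparisons within width and score classes, and every alternative for the mirrored set, were chosen after seeing the data.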

Additional observations from a re-analysis of the deposited data

How the results depend on the processing

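Over 13 results and 91 alternatives, 72 values stayed within the reported value's 95% interval (for the number of members, within 1.5 times) and 19 lay outside. The sign changed in 1 case, the FLAG difference of H3K27me3 gains, whose reported interval already spans 0. With an overlap of 50% of the smaller peak that difference was 6.91 points (0.716 to 13.7), an interval that no longer spans 0. The number of members lay between 5037 and 6414. With the upper 50% of every histone list by score, the share of members was 9.77% for KO H3K27ac, 1.13% for KO H3K27me3 and 52.0% for FLAG. Under that setting 0.407% of H3K27ac gains reached over from a WT peak, and the FLAG difference of H3K27me3 gains against no gain was 10.3 points. The mirrored set then had WT H3K27ac at 16.6% and WT H3K27me3 at 8.21%, and the FLAG share at gains minus that at losses was −10.5 points for H3K27ac and −11.1 points (−25.0 to 1.21) for H3K27me3. With the upper 50% of the KO lysine 27 lists alone, the shares were 2.24% for KO H3K27ac and 0.247% for KO H3K27me3. The gains that reached over from a WT peak then made up 8.82% and 86.7%, and the FLAG difference of the remaining 15 H3K27me3 gains was −5.63 points. Lists of equal length gave 4.73% for KO H3K27me3 and 8.79% for the mirrored set. An overlap of 50% gave 27.5% of H3K27me3 gains reaching over from a WT peak, peaks up to 1 kb apart gave a FLAG share of 26.6%, and weighting within width classes gave −12.1 points for the FLAG difference of H3K27ac gains. The cause of these moves was not tested. The mirrored set was not run with the upper 50% of the KO lysine 27 lists. No paired analysis was possible because each arm held 1 library.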

Other observations

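Neighbouring members were compared for the same gain. Where the nearest other member lay within 50 kb and gained H3K27ac, 47 of 282 members (16.7%, 12.8 to 21.5) gained it too, against 238 of 1865 (12.8%, 11.3 to 14.4) where that neighbour did not gain it. Within 10 kb the counts were 6 of 74 (8.11%) and 67 of 619 (10.8%). For H3K27me3 within 50 kb, 0 of 66 members gained it beside a neighbour that had, which allows a share of up to 5.50%, against 69 of 2081 (3.32%) beside one that had not.

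Of the 12 WT H3K4me3 peaks outside chromosomes 1 to 22, X and Y, 6 were members.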
